A study of Mus musculus with 10 samples.

Results

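The F-box and BTB adaptors of ubiquitin ligases were described in the ARID2 maps of mouse spermatogenic cells, as the protein-coding genes whose symbol begins with Fbxo, Fbxl, Fbxw, Klhl, Kctd, Kbtbd or Btbd followed by a digit. There were 188 such genes among 21774 protein-coding genes in RefSeq for mm10 (GRCm38.p6). ARID2 is a subunit found in PBAF and not in BAF, the other main form of the mammalian SWI/SNF remodeler, and it was mapped by CUT&RUN, in which a nuclease tethered by an antibody releases the DNA around the bound protein. The cells came from wild-type CD1 mice whose spermatogenesis was synchronized. The mice received WIN 18,446, an inhibitor of retinoic acid synthesis, from postnatal day 1 (P1) to P10, then 1 dose of retinoic acid at P11, and their spermatogenic cells were taken at P28 and at P28.5, that is 17 and 17.5 days after retinoic acid. The cells of both ages were enriched for spermatocytes in late prophase I and metaphase I, and no mutant or untreated group entered the maps. Metaphase cells were a minority at both ages. The paper reports more round spermatids and fewer leptotene and zygotene spermatocytes at P28.5 than at P28. It also reports that a smaller share of ARID2-enriched TSSs overlapped called peaks at P28.5. The part of these differences in which genes were listed at each age was not tested. At each age the deposited series has 2 ARID2 libraries, 2 libraries for the PBAF ATPase BRG1 and 1 control without primary antibody, and only the ARID2 lists were used here. Each list names the transcription start sites (TSSs) that the authors placed in cluster-1 (Cl-1), the ARID2-occupied cluster, from the mean of both libraries over the control. A row of a list holds 1 position and 1 symbol, without signal, depth or strand, so a gene is listed or not listed, replicate error could not be computed, and no expression was available to check the cell type.

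Cullin-RING ligases attach ubiquitin to proteins, and exchangeable adaptors choose the protein. F-box proteins dock on CUL1 through SKP1 and hold their substrates with leucine-rich repeats (Fbxl), WD40 repeats (Fbxw) or other domains (Fbxo). Proteins with a BTB domain dock on CUL3 directly and hold substrates with Kelch repeats (Klhl, Kbtbd) or other domains (Kctd, Btbd), although not every member of these families has been shown to work as an adaptor. In dividing cells such adaptors act on cyclins, on WEE1 and on the Aurora and Polo kinases, and some of them are known only from testis, so the comparison asks which of their promoters carried ARID2 as spermatocytes went through meiosis I.

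The promoters below are shown as the RefSeq sequence of GRCm38.p6, 5′ to 3′ on the strand of the gene, from 150 bases before the annotated start to the 30th base of the transcript, so that base 151 is the start. Capitals mark each CpG. The first set is of genes with a listed position on the start itself. Fbxw11, whose product BTRC2 recognises beta-catenin, WEE1 and EMI1, lies on the plus strand at chr11:32642405-32642584 and has 19 CpGs in these 180 bases. Kbtbd8, a CUL3 adaptor of neural crest specification, lies on the plus strand at chr6:95117730-95117909 with 17 CpGs. Base 151 of both was on the lists of both ages. Klhl21, a CUL3 adaptor for Aurora B at the spindle midzone, lies on the plus strand at chr4:152008741-152008920 with 16 CpGs, and its base 151 was listed at P28. Kbtbd7 lies on the plus strand at chr14:79426361-79426540 with 16 CpGs, and its base 151 was listed at P28.5.
Fbxw11: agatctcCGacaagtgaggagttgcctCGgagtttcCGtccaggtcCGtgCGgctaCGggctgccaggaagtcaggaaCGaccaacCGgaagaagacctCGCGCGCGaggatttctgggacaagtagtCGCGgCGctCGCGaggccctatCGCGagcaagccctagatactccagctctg
Kbtbd8: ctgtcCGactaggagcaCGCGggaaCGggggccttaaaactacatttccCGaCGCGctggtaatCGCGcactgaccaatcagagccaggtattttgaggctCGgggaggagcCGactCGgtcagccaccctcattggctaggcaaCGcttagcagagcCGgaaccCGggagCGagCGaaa
Klhl21: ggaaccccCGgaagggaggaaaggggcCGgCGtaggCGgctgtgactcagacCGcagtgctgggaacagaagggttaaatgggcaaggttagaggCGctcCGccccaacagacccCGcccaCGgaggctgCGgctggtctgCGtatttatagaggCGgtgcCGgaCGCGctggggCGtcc
Kbtbd7: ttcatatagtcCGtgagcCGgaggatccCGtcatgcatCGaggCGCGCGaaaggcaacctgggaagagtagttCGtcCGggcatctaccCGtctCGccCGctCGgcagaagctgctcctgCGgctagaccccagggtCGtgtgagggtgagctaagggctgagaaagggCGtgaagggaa

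The second set is of promoters shared with a gene on the other strand, where a listed position cannot be given to 1 of the pair. Kctd21, a CUL3 adaptor for the histone deacetylase HDAC1, lies on the plus strand at chr7:97332173-97332352 with 18 CpGs, and its bases 144 and 151 were listed at both ages, the nearer of them 8 bp from the start of Usp35. Kctd13, a CUL3 adaptor for the GTPase RHOA, lies on the plus strand at chr7:126928729-126928908 with 24 CpGs, and its bases 116 and 151 were listed at P28.5, the former 23 bp from the start of Tmem219. Klhl18, another Kelch adaptor of CUL3, lies on the minus strand at chr9:110476665-110476844 with 13 CpGs, and its base 58, which lies 45 bp from the start of Kif9, was listed at both ages. Fbxw14 is shown as a contrast, since it is a member of a rodent gene cluster, lies on the minus strand at chr9:109287647-109287826, holds 0 CpGs, and had no listed position near its start.
Kctd21: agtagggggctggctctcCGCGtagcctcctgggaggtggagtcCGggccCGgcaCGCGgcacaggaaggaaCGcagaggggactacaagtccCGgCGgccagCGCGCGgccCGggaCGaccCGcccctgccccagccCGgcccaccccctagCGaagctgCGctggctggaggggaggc
Kctd13: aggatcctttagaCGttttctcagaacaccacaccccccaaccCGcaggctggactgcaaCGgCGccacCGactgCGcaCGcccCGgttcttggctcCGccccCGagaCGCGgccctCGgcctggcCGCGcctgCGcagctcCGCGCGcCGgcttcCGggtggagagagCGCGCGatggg
Klhl18: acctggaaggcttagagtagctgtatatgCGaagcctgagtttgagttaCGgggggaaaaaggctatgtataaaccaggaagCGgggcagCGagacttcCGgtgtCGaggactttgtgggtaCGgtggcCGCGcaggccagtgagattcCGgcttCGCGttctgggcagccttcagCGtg
Fbxw14: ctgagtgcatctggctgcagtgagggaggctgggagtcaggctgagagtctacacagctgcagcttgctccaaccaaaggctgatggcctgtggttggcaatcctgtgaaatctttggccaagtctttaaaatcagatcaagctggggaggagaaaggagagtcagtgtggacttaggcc

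At P28, 34 of the 188 adaptor genes were named in Cl-1 (18.1%, 95% Wilson interval 13.2% to 24.2%), where 16.8% of all protein-coding genes were. At P28.5, 20 were named (10.6%, 6.99% to 15.9%), where 11.6% of all genes were. The intervals cover counting error over genes only, and both include the share of all genes. At both ages 11 adaptors were named (5.85%, 3.30% to 10.2%, all genes 8.48%), at P28 alone 23 (12.2%, all genes 8.33%), at P28.5 alone 9 (4.79%, all genes 3.13%), and 145 at neither. The 11 shared adaptors were 32.4% of the P28 adaptors and 55.0% of the P28.5 adaptors, where the shared genes were 50.5% and 73.1% of all genes listed at these ages. No test was made of these differences, which rest on few genes and on 1 list per age.

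The 11 adaptors listed at both ages were Fbxo3, Fbxo8, Fbxo36, Fbxw11, Kbtbd3, Kbtbd8, Kctd7, Kctd9, Kctd21, Klhl18 and Klhl25. Every one of them had a listed position within 50 bp of an own start, and in 10 of the 11 the same positions returned at P28.5. The exception was Fbxw11, a cell division adaptor, which had 8 rows at P28 and 6 at P28.5 on chromosome 11. Its start at 32642555 had 4 rows at each age, the positions 32642736 and 32642752 in a non-coding part of its exons had 1 row each at each age, and 32642003, which lies 552 bp upstream, had 2 rows at P28 only. Kctd9 had 7 rows at each age, at 67716084, 67716098 and 67716199 on chromosome 14, the last of them in a non-coding part of an exon. These lie 243 to 358 bp from the start of Cdca2 on the other strand, so they cannot be given to 1 of the pair. Klhl25, a CUL3 adaptor in the control of translation, had 4 rows at each age on chromosome 7, with 3 at its start at 75848338 and 1 at 75848390. Fbxo3 had 3 rows at each age at 104027799 and 104027802 on chromosome 2. Fbxo8, which carries a Sec7 domain beside its F-box, was listed at 56551134 and 56551316 on chromosome 8 at each age, 258 and 440 bp from the start of Cep44 on the other strand. The number of rows on a position is no measure of binding, since the lists hold no signal.

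The 9 adaptors listed at P28.5 and not at P28 were Fbxo22, Fbxo30, Fbxo42, Kbtbd7, Kctd13, Kctd20, Klhl7, Klhl32 and Klhl36. All but Klhl32 lie on the plus strand and were listed on at least 1 of their own annotated 5′ ends. These starts were 55208935 on chromosome 9 for Fbxo22, an adaptor for histone demethylase KDM4A, 11281330 on chromosome 10 for Fbxo30, and 141147922 on chromosome 4 for Fbxo42, which had a further 2 rows 14 bp upstream. They were 126928879 on chromosome 7 for Kctd13, 28952599 on chromosome 17 for Kctd20, and 24100590, with 2 rows, on chromosome 5 for Klhl7, a CUL3 adaptor mutated in retinal degeneration. Klhl36 was listed on both 119862231 and 119862305 on chromosome 8. Klhl32, on the minus strand of chromosome 4, was listed at 24851260, which lies 110 bp upstream of its start and in an exon of Gm31379. Kbtbd7 and its neighbour Kbtbd6, an adaptor for the RAC activator TIAM1, have starts 25324 bp apart on the plus strand of chromosome 14, and the ages divided them. Kbtbd6 was listed on its start at 79451835 at P28 alone, and Kbtbd7 on its start at 79426511 at P28.5 alone. With 1 list per age and no signal value, how far such a TSS lay from the edge of the cluster cannot be told.

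**Figure D1:**
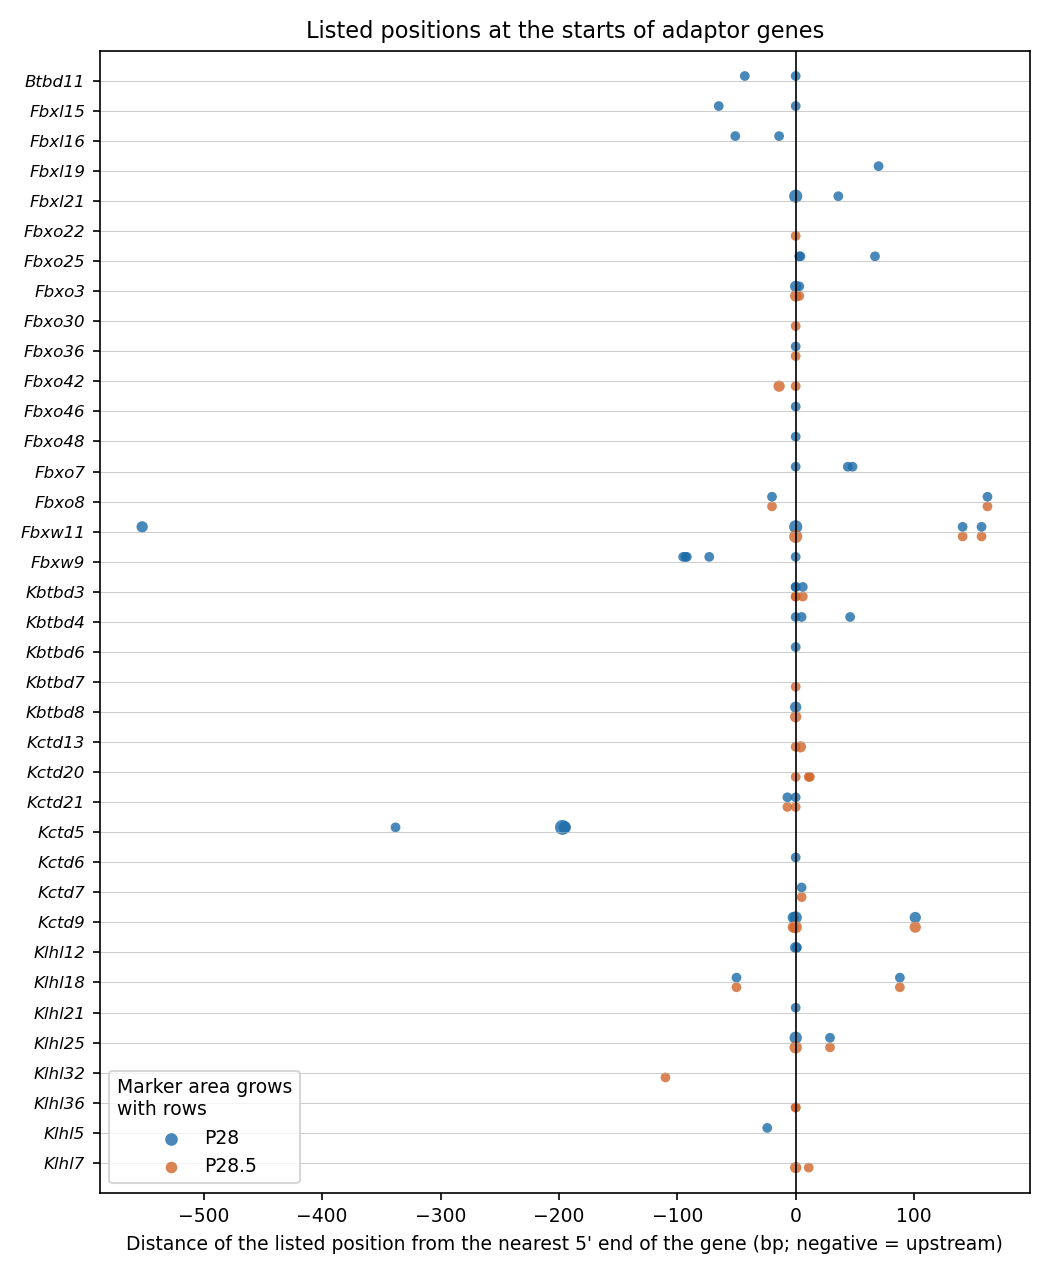
Distance in bp of each listed position within 2000 bp of an own start, for the 37 adaptor genes that have one, at P28 (blue) and P28.5 (orange), with marker area growing with the number of rows. Positions lie between 552 bp upstream and 162 bp downstream of the starts, and those of Kctd9 and Klhl25 recur at both ages, as do those of Fbxw11 except the one 552 bp upstream.

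At P28.5 all 37 listed positions of adaptors lay within 162 bp of an own start (median 2 bp), and 18 of them equalled an annotated 5′ end. At P28 there were 65 positions, of which 57 lay within 2000 bp (median 6 bp, 21 equal to a 5′ end) and 8 lay farther, and these 8 belonged to 6 genes. When only rows within 2000 bp of an own start counted, 28 adaptors were listed at P28 (14.9%, all genes 13.7%) and the same 20 at P28.5 (10.6%, all genes 11.4%). Kctd3 had 12 rows at P28 at 188971095 and 188971098 on chromosome 1, at its own 3′ end and 26240 and 26237 bp from its start. Btbd9 was listed at 30508303 on chromosome 17, at the 3′ end of 1 of its transcripts and 63900 bp from its start. Fbxw14 was listed at 109270975 on chromosome 9, 16701 bp from its start and in a non-coding exon. Kctd15, which represses the AP-2 factors, was named for an intergenic position 130591 bp from its start. Kctd16, a GABA-B receptor subunit, was counted for a position in an exon of Gm31087, 13412 bp upstream of its start. That row carries the name 2900055J20Rik, which matches Kctd16 only as a synonym. By symbols as written, 33 adaptors were named at P28 (17.6%, all genes 16.4%). Kctd5, an adaptor for G protein beta-gamma subunits, had 11 rows at P28 on chromosome 17, at 24073680 (3 rows), 24073682 (7 rows) and 24073823 (1 row). These lie 195 to 338 bp upstream of its start, and each equals a 3′ end of Pdpk1, a neighbour on the same minus strand. Kctd5 is among the 28 adaptors counted within 2000 bp of an own start. Further genes of P28 alone were Btbd11, Fbxl15, Fbxl16, Fbxl19, Fbxl21, Fbxo7, Fbxo25, Fbxo46, Fbxo48, Fbxw9, Kbtbd4, Kbtbd6, Kctd6, Klhl5, Klhl12 and Klhl21, and their positions lay within 95 bp of a start. Of these, Fbxl21, an adaptor for the cryptochromes of the clock, had 4 rows on its start at 56522388 on chromosome 13 and 1 row 36 bp from a start, and Fbxw9 had 5 rows up to 95 bp upstream of its start at 85060119 on chromosome 8.

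Some listed positions lay where 2 genes start close together on opposite strands. Of the 188 adaptors, 30 (16%) have the start of another protein-coding gene on the other strand within 1000 bp, where 12.2% of all genes do. Among the 11 adaptors listed at both ages these were 7 (63.6%), where they were 33.8% of all genes listed at both ages. Among those at P28 alone they were 2 of 23 (8.70%), at P28.5 alone 1 of 9 (11.1%), and among those at neither age 20 of 145 (13.8%). The closest were Kctd21 and Usp35, a deubiquitinase gene, and Fbxl15, an adaptor for SMURF1, with Psd, both 8 bp from a listed position of the adaptor. Kbtbd4, an adaptor for the CoREST complex, was listed at P28 at 90904740 on chromosome 2, 19 bp from the start of Ndufs3, a subunit of respiratory complex I. Next came Kctd13 with Tmem219 at 23 bp, Klhl18 with the kinesin gene Kif9 at 45 bp, and Kbtbd3 with Aasdhppt at 126 bp. Kif9 was also listed under its own name at both ages, at 3 positions 221 to 265 bp from the start of Klhl18.

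The reverse arrangement was seen in 7 adaptors that no row named and whose start lay within 292 bp of a position listed for a neighbour. Kctd19, a partner of ZFP541 that male meiosis needs to leave metaphase I, has its start on the minus strand of chromosome 8, 106 bp from a position listed for Lrrc36 at both ages. Klhl28 was 161 bp from Togaram1 and Fbxo15, a target of OCT4 in stem cells, 292 bp from Timm21, each at both ages. At P28, Fbxl12 was 56 bp from Ubl5, Fbxo38 48 bp from Spink10 and Kctd12 88 bp from Mir5130. At P28.5, Fbxo45, the F-box partner of the ligase MYCBP2, was 153 bp from Wdr53. Counted by any listed position within 2000 bp of a start, 34 adaptors were reached at P28 (18.1%, all genes 17.3%) and 24 at P28.5 (12.8%, all genes 14.8%).

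For this description 18 adaptors were assigned to cell division or male germ cells. The assignment is not a complete list, and other adaptors may act there too. Of the 18, 3 were listed at P28 (16.7%, all genes 16.8%) and 1 at P28.5 (5.56%, all genes 11.6%). Their share at P28 was near that of all genes, and both shares rest on few genes. Fbxw11 was listed at both ages. Fbxo7, a proteasome regulator that spermatids need, was listed at P28 at 86021875, 86021879 and 86021929 on chromosome 10, the last of them a 5′ end, and its nearest listed position at P28.5, under the name Hsp90b1, lay 683464 bp away. Klhl21 was listed at P28 on its start at 152008891 on chromosome 4, and at P28.5 lay 75171 bp from the nearest listed position. No row named the other 15, and the start of 14 of these lay at least 4045 bp from any listed position at both ages, with Kctd19 as the exception. Fbxo5 and Fbxo43, which encode the APC inhibitors EMI1 and EMI2, had their nearest listed positions 1080314 and 204111 bp away at P28, and 1372860 and 837567 bp away at P28.5. Fbxw7, the adaptor for cyclin E and MYC, had them 1759452 and 1271693 bp away, and Fbxw5, an adaptor for the centriole factor SASS6, 108600 and 57071 bp away. Among the Aurora B and PLK1 adaptors, Klhl9 lay 51326 bp from a listed position at both ages, Klhl22 215156 and 307636 bp, and Klhl13 is X-linked, where 0 of the 34 adaptors were listed at either age, which allows a share of up to 8.82%. Over all 963 X-linked protein-coding genes the lists named 0 at P28 and 2 at P28.5 (0.208%). Fbxo31, an adaptor for cyclin D1, lay 328969 bp away at P28 and 11604 bp at P28.5, Fbxo4, also linked to cyclin D1, 16466 bp away at both ages, and the spindle-linked Fbxo28 67561 bp. Of the germ cell genes, Fbxo24 lay 4045 bp and Btbd18, which pachytene piRNA clusters need for transcription, 19323 bp from a listed position at both ages. Fbxo47, which male meiosis needs for synapsis, lay 120539 and 84465 bp away, and Klhl10, the CUL3 adaptor of spermatids, 72272 and 121179 bp. Of these 15, 10 lie on the minus strand, for which the lists seldom give a start.

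**Figure D2:**
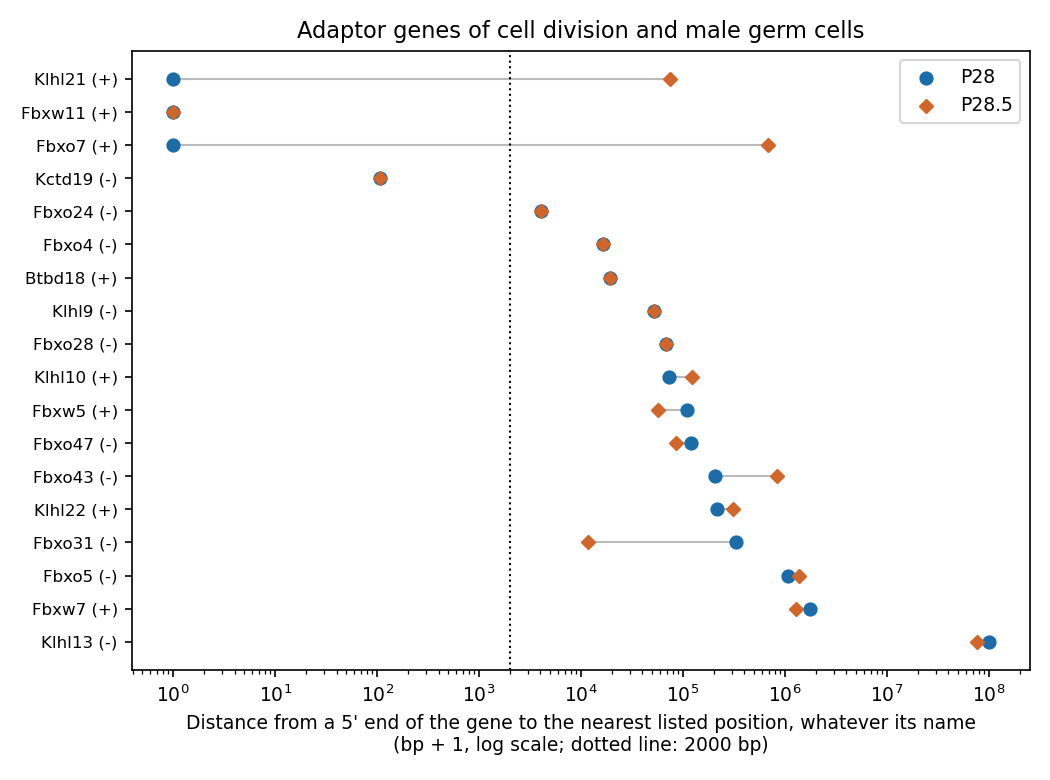
Distance in bp plus 1, on a log scale, from a start of each of the 18 division and germ cell adaptors to the nearest listed position whatever its name, at P28 (circles) and P28.5 (diamonds), with the strand in brackets. Klhl21, Fbxw11 and Fbxo7 have a listed position on a start at P28, and Fbxw11 at P28.5 too, Kctd19 lies 106 bp from one, and the others lie past the dotted line at 2000 bp.

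The lists favoured the plus strand for all genes. Of the positions that equalled an annotated transcript end, 99.9% at each age were the lower coordinate of a transcript, which is the 5′ end on the plus strand and the 3′ end on the minus strand. On the plus strand 27 of 92 adaptors were named at P28 (29.3%, all plus-strand genes 26.0%) and 18 at P28.5 (19.6%, all 20.4%). On the minus strand these were 7 of 96 (7.29%, all 7.61%) at P28 and 2 of 96 (2.08%, all 2.86%). The absence of a minus-strand adaptor therefore says little about ARID2 at its promoter.

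**Figure D3:**
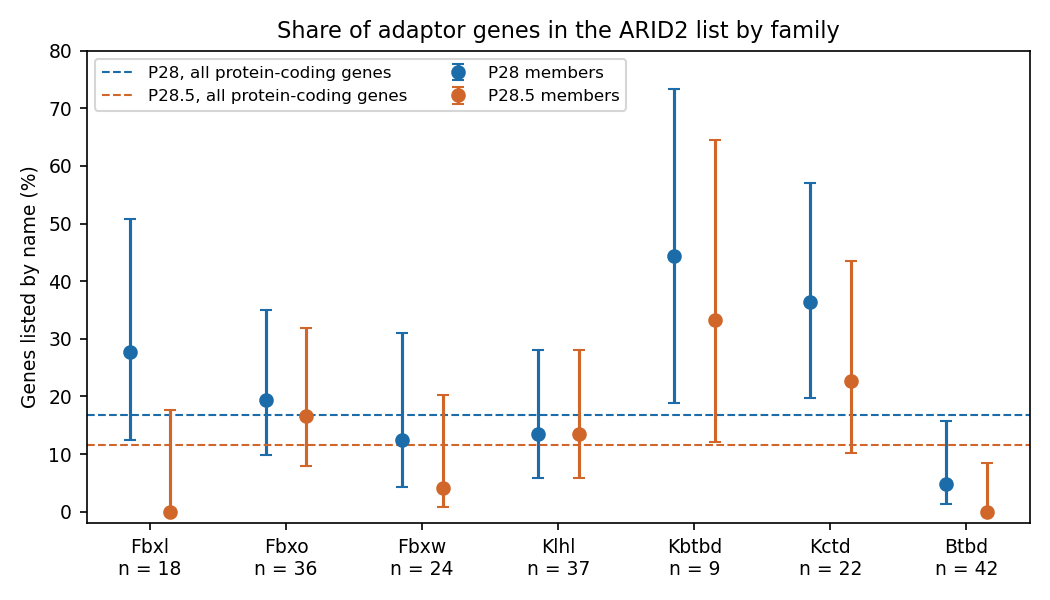
Share of each family listed by name at P28 (blue) and P28.5 (orange), with 95% Wilson intervals as bars and the share of all protein-coding genes as dashed lines (16.8% and 11.6%). Kbtbd, Kctd and Fbxo members lie above the lines at both ages and Btbd and Fbxw members below them, with wide intervals.

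By family, Kbtbd had the highest share, with 4 of 9 genes at P28 (44.4%, Wilson interval 18.9% to 73.3%) and 3 of 9 at P28.5 (33.3%, 12.1% to 64.6%). Kctd followed with 8 of 22 (36.4%, 19.7% to 57.0%) and 5 of 22 (22.7%, 10.1% to 43.4%). Only 5 of its 8 at P28 were listed near their own start, and these include Kctd5, whose positions equal 3′ ends of Pdpk1. Fbxo had 7 and 6 of 36, and Klhl 5 of 37 at each age. Fbxl had 5 of 18 at P28, among them Fbxl15, Fbxl16, Fbxl19 and Fbxl21, and 0 at P28.5, which allows a share of up to 16.7%. Fbxl19 encodes a protein with a CXXC zinc finger that binds unmethylated CpG, and it was listed 70 bp downstream of its start. Fbxw had 3 and 1 of 24 and Btbd 2 and 0 of 42, but 15 of the Fbxw genes form a cluster between 109139454 and 109790660 on chromosome 9, and 29 of the Btbd genes are near-identical Btbd35f copies on the X chromosome. Of these genes only Fbxw14 was named, at P28. The families also differ in strand. The plus strand holds 6 of 9 Kbtbd, 11 of 22 Kctd, 18 of 36 Fbxo and 19 of 37 Klhl genes. It holds 7 of 18 Fbxl, 6 of 24 Fbxw and 25 of 42 Btbd genes. The part of strand, of the X chromosome and of read placement among near-identical copies in the family shares was not tested. Without the 45 genes of this kind (the Btbd35f genes and the Fbxw genes numbered 12 and above), 33 of 143 adaptors were listed at P28 (23.1%, Wilson interval 16.9% to 30.6%, all genes without these copies 16.8%) and 20 of 143 at P28.5 (14.0%, 9.24% to 20.6%, all 11.6%). Within this subset the P28 interval lay just above the share of all genes, and the P28.5 interval included it. The subset was made by removing these copies alone, of which 1 of 45 was named at P28. Other multicopy families stayed among all genes, so the 2 shares are not alike and the gap is no result about the adaptors.

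Listing moved with the CpG content of the promoter, taken as observed over expected CpG in the 500 bp on each side of the outermost annotated start of the gene. That start need not be the listed one. Kctd7, with a ratio of 0.263 at 130137978 on chromosome 5, was listed at another of its starts, near 130144888. The median was 0.790 in adaptors listed at both ages, 0.686 at P28 alone, 0.885 at P28.5 alone and 0.393 at neither, and over all genes of these classes it was 0.782, 0.610, 0.773 and 0.424. At P28, 7.14%, 9.80%, 17.2%, 32.4% and 23.9% of adaptors were listed from the lowest to the highest CpG quintile of all genes, where all genes had 6.54%, 9.64%, 14.2%, 24.9% and 28.8%. In the lowest quintile the adaptors listed at P28 were Fbxw14 and Btbd9, whose rows lay 16701 and 63900 bp from a start. That share therefore describes listing by name and not listed promoters. At P28.5 these shares were 0, 1.96%, 6.90%, 17.6% and 23.9%, and 2.02%, 3.05%, 6.89%, 19.1% and 27.0% over all genes. The rise with CpG content was thus seen over all genes too. The multicopy Fbxw genes had a median ratio of 0.108 and the Btbd35f genes of 0.214. The part of CpG content in the differences between families was not tested.

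**Figure D4:**
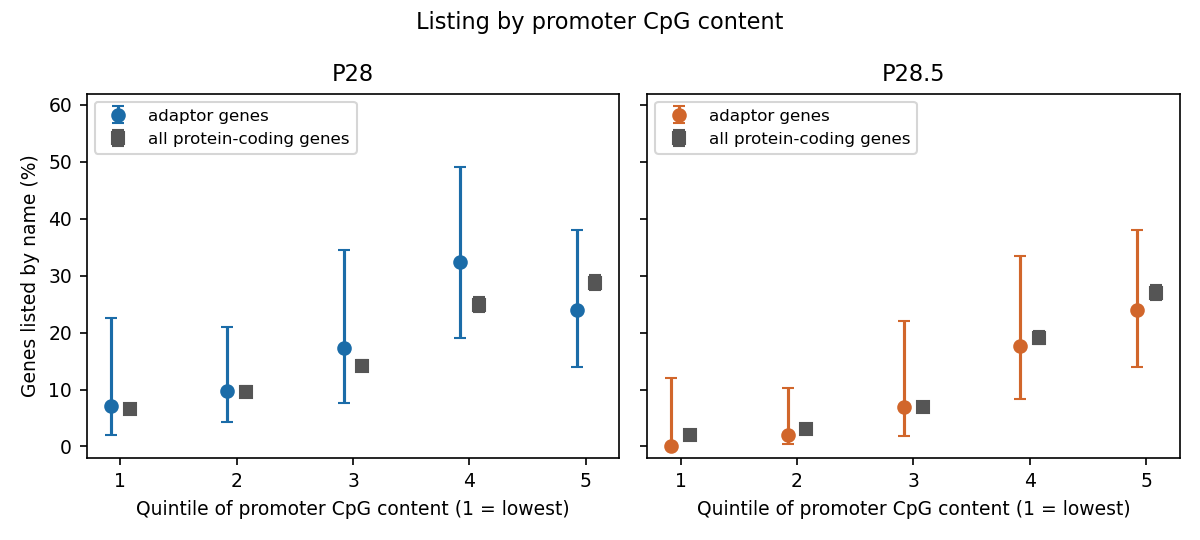
Percentage of genes listed by name in each quintile of promoter CpG content at P28 (left) and P28.5 (right), for adaptor genes (coloured circles) and all protein-coding genes (grey squares), with 95% Wilson intervals. Shares rise from 7.14% in the lowest to 32.4% in the fourth quintile at P28, and from 0 to 23.9% in the highest at P28.5. The adaptors listed in the lowest quintile at P28, Fbxw14 and Btbd9, had their rows far from a start.

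Promoter windows from 250 bases before to 50 after a start were at hand for 131 of the 188 adaptors (176 windows) and for 36 of the 43 listed at either age (50 windows). A window was classed by its gene, so some windows of listed adaptors hold no listed position, as those of Kctd15 and Fbxl19. The shares below therefore describe the starts of listed genes and not listed starts alone. Motifs were searched on both strands, and none of them contains another. The GC box was read as GGGCGG and the ETS site as CCGGAAG. NRF1 was read as GCGCATGCG and an element of many housekeeping promoters as TCTCGCGA. The CRE was read as TGACGTCA and the YY1 site as AAGATGGCG. The CCAAT box and TATAAA, the TATA box, were searched by these letters. GGGCGG was found in 39 of the 50 windows of listed adaptors (78.0%) and in 49.2% of the 126 windows of unlisted ones, against 61.9% of windows of all listed genes and 46.2% of all windows. CCGGAAG was in 28% and 14.3% of adaptor windows (all listed genes 17.7%, all windows 11.6%), as at bases 86 to 92 of the Fbxw11 promoter shown above. Without the multicopy genes, unlisted adaptors held GGGCGG in 57.7% of windows and CCGGAAG in 17.3%. CCAAT was in 22.0% of listed and 27.0% of unlisted adaptor windows (all listed genes 41.0%, all windows 38.2%), and TATAAA in 6% and 4.76% (all listed genes 7.78%, all windows 12.6%). For CCAAT these were 11 of 50 listed and 34 of 126 unlisted adaptor windows, and adaptors listed at both ages held it in 3 of 10. The difference among adaptors rests on few windows and was not tested. Over all genes CCAAT was more frequent in listed windows than in the 37.4% of unlisted ones. The remaining motifs were each in at most 2 of the 50 windows, and in 2.35%, 1.41%, 2.23% and 1.83% of all windows in the order given. Windows of 1 gene overlap, and GGGCGG itself holds a CpG, so these shares move with the CpG count, whose median was 22 in listed and 14.5 in unlisted adaptor windows.

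Genes of the ligase core, and adaptors with other symbols, were compared as the setting in which the adaptors work. They are 67 genes in 7 lists, of which 5 F-box and 16 BTB genes are adaptors. The ARID2 lists named 25 of the 67 at P28 (37.3%) and 23 at P28.5 (34.3%), with 19 at both ages, above the 16.8% and 11.6% of all genes. These shares mix core genes with the other adaptors, of which 1 of 5 F-box and 4 of 16 BTB genes were named at each age (20% and 25%). The part of CpG content in these shares was not tested. Among 8 cullins, Cul3, the scaffold of the BTB adaptors, and Cul4a were listed at both ages and Cul5 at P28.5. Cul1, the scaffold of the F-box adaptors, was not listed, and its nearest listed position lay 373777 bp away at P28. Of 8 linkers and RING proteins, Skp1, the link from CUL1 to the F-box, Rbx1, the RING subunit, and Ddb1 were listed at both ages, Glmn at P28.5, and Rnf7 at P28, 60625 bp from its start. Of 12 genes of cullin activation by NEDD8, Ube2f, Dcun1d3 and Dcun1d4 were listed at both ages and Dcun1d2 and Dcun1d5 at P28. No row named Nedd8 or Nae1, both on the minus strand. At P28.5 they lay 355 bp from a position listed for Gmpr2 and 38 bp from one listed for Car7. Of 10 genes of the COP9 signalosome, which removes NEDD8, Cops4, Cops5, the catalytic subunit, and Cops8 were listed at both ages. Cops6 was listed at P28, Gps1 at P28 but 4702 bp from its start, and Cops7b at P28.5. Of 8 ubiquitin-conjugating enzymes, Cdc34, Ube2g1, Ube2d3 and Ube2b were listed at both ages. Among 5 F-box genes with other symbols, Btrc, the paralog of Fbxw11, had 16 rows at P28 and 14 at P28.5, while Skp2 was named in neither list and lay 76 bp from a position listed for Lmbrd2. Among 16 BTB genes with other symbols, Ivns1abp, Ipp and Spop were listed at both ages and Rhobtb1 at P28, 38606 bp from its start.

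**Figure D5:**
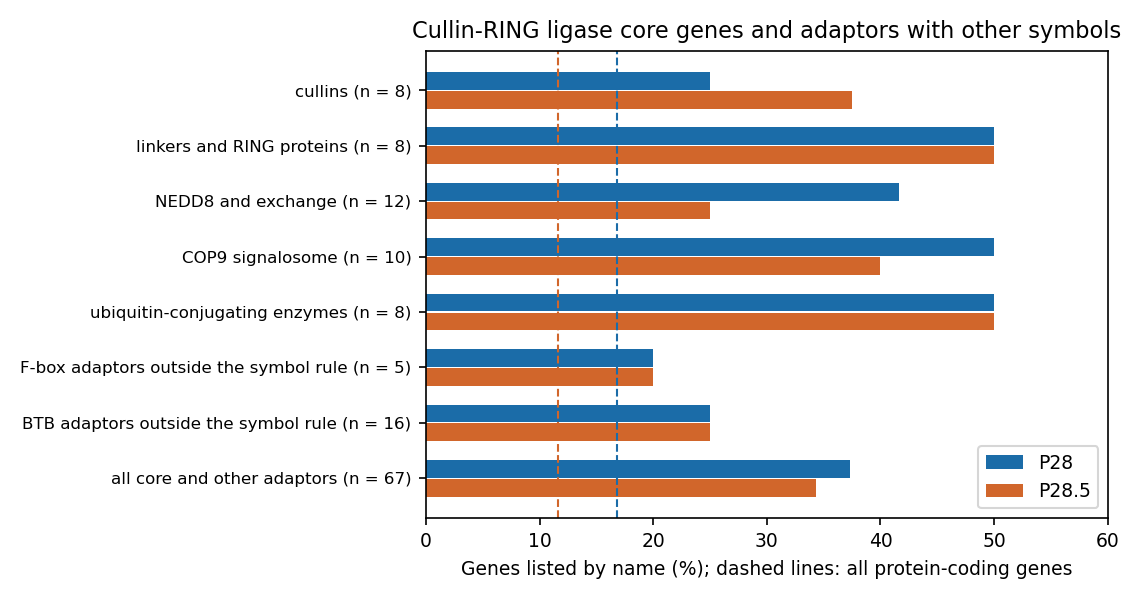
Percentage of genes of each ligase list named at P28 (blue bars) and P28.5 (orange bars), with the shares of all protein-coding genes as dashed lines (16.8% and 11.6%). Linkers, COP9 subunits and conjugating enzymes reach 50% at P28, and the adaptors with other symbols 20% and 25%.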

How the data were processed

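CUT&RUN for ARID2, BRG1 and a control without primary antibody was made from spermatogenic cells at P28 and P28.5. The authors trimmed reads with TrimGalore, aligned them to mm10 with Bowtie2, processed alignments with SAMtools, made deepTools coverage tracks without blocklisted regions and duplicates, scaled them with csaw, formed the log2 ratio over the control, averaged replicates and clustered TSSs by k-means. The deposited lists of 11553 rows at P28 and 8514 at P28.5 hold genomic positions and symbols, so depth, signal and replicate spread were not in them. The RefSeq release the authors used is not given in the sources used here. BRG1, signal tracks and peaks were not analysed here.

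A gene was listed where a row carried its symbol or a synonym that belongs to 1 gene (99.8% of names matched at each age). Of 191 symbols that fit the pattern, 3 were not protein coding and were left out. Distances were taken to annotated 5′ ends in GRCm38.p6. Shares have 95% Wilson intervals, and 0 has a limit of 3 counts. Python 3.11.15, pandas 2.3.3 and scipy 1.17.1 were used, and the lookup of names and distances was tested on simulated rows.

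The members, the gene lists and the alternatives were chosen with earlier results of these data known. Genes were named by rule: division and germ cell members, the 5 members with most rows, members listed at P28.5 and not P28, the 6 listed positions closest to a start on the other strand, the 3 members whose rows lay farthest from their start, and listed ligase genes. Other names were chosen after their values were seen. Some genes that the rule names are not reported here. Alternatives were other ways to count a gene as listed, subsets of genes by strand, chromosome, copies and CpG content, a 5 bp tolerance and a 500 bp window.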

Additional observations from a re-analysis of the deposited data

How the results depend on the processing

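Of 24 alternative shares of listed adaptors, 16 stayed within the counting interval of the reported share. The side of the all-gene share held in the subsets by strand, chromosome, copies and CpG content at P28 (above) and at both ages (below), but not at P28.5. There the reported share lay below that of all genes, and it lay above it without multicopy genes (14.0%, all genes 11.6%), on autosomes (13.0%, all genes 12.3%) and on the plus strand without multicopy genes. At P28 the interval lay above the all-gene share in 2 subsets, that without multicopy genes and that of the plus strand without them (27.2% to 49.0%). The subsets without multicopy genes lost mostly unlisted adaptor copies, while other multicopy families stayed among all genes, so their side is no result about the adaptors. The shares that moved rose in the subsets where more of all genes were listed too. On the plus strand they were 29.3% at P28, 19.6% at P28.5 and 10.9% at both ages (all genes 26.0%, 20.4% and 14.8%). In the 3 upper CpG quintiles they were 24.8% at P28 and 17.4% at P28.5 (all genes 22.6% and 17.7%). On the plus strand without multicopy genes, a subset added after seeing the data, they were 37.5%, 25.0% and 13.9% (all genes 26.1%, 20.4% and 14.9%). Of the listed positions of both ages together, 39 equalled an own 5′ end and 50 lay within 5 bp of one. Within 500 bp, 28 adaptors had a start on the other strand.

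No paired analysis was possible because the lists were made from averaged libraries and no result comes from a test across samples. For the same reason leaving out a replicate could not be run. Depth and signal were not in the lists, so an adaptor that is not listed cannot be told from one just outside the cluster.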
